A study of Homo sapiens with 18 samples.

Results

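The genes described here are 10 members of bone morphogenetic protein (BMP) signalling, chosen by name: the inhibitor of DNA binding genes *ID2*, *ID3* and *ID4*, the signal-carrying *SMAD1* and *SMAD5*, the inhibitory *SMAD6* and *SMAD7*, the pseudoreceptor *BAMBI*, and the receptors *BMPR1A* and *BMPR2*. They are 10 of 26941 genes left when each gene was represented by a single RefSeq transcript, whichever had most counts summed over the 18 samples. All 10 were found in the count tables. *ID1* was also found but held too few counts to be tested. The study asked which genes respond when the transcription factor SOX11 is reduced in B-cell acute lymphoblastic leukemia (B-ALL) cells. RNA was sequenced from 3 established B-ALL cell lines, REH, which carries the *ETV6-RUNX1* fusion, 697 and RCH-ACV. Of the 6 samples of a line, 3 had received *SOX11* siRNA and 3 a non-specific control siRNA, at 300 nM by nucleofection, and RNA was taken at 48 h. Each group is therefore 3 transfections of a single line, and every sample, the controls included, had been nucleofected. Per the study's methods the 3 replicates of a group were collected as separate biological replicates, and p-values measure the spread between these samples.

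In BMP signalling a secreted ligand brings together type II receptors such as BMPR2 and type I receptors such as BMPR1A, and the type I receptor then phosphorylates SMAD1 and SMAD5. These join SMAD4, enter the nucleus and switch on target genes, of which the *ID* genes are the best known, together with *SMAD6*, *SMAD7* and *BAMBI*, whose products feed back to dampen the signal. ID proteins lack a DNA-binding region and bind the E proteins TCF3, TCF4 and TCF12, which B-cell precursors need for their development.

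The total count per sample on the 26941 genes lay between 7039594 and 16592492, so that 3 counts, taken as the smallest number that shows a gene, corresponded to 0.181 to 0.426 CPM (counts scaled to the same library total). Such floors cover counting error only. *SOX11*, the targeted gene, was lower in all 3 samples with its siRNA than in all 3 controls of every line, and its log2 fold change was -0.83 for REH, -0.91 for 697 and -0.67 for RCH-ACV (adjusted p = 1.41e-08, 0.000232 and 2.51e-06, quasi-likelihood F-test of edgeR). Over 1 RPKM (reads per kilobase of exon, scaled like CPM), 9 of 10 B-cell precursor markers were present in REH, where *VPREB1* was low, and 10 of 10 in 697 and RCH-ACV. Of the T cell markers *LCK* alone passed 1 RPKM, of the stromal and endothelial markers *PDGFRB* alone and of the erythroid and megakaryocyte markers none, while *MPO* and *CSF3R* of the myeloid markers passed it in REH and *CSF1R* in RCH-ACV and in 697 with *SOX11* siRNA. Some markers moved with the siRNA by edgeR's test. In REH *MPO* fell by 0.78 on the log2 scale (adjusted p = 0.000237), and *EBF1* was lower too (log2 fold change -0.13, 0.0294). *MME* rose there by 0.36 (5.26e-08), *RAG1* by 0.20 (5.62e-05) and *CD79A* by 0.13 (0.0253). In RCH-ACV *LCK* rose by 0.43 (0.0336), *MME* by 0.56 (0.00729) and *CD79A* by 0.46 (0.000253) while *DNTT* fell by 0.37 (0.00689). The summed RPKM of the 10 B-cell precursor markers did not overlap between the siRNA groups of a line. In REH it was higher with *SOX11* siRNA (2824.5 to 2881.9, against 2657.8 to 2766.9 in controls), and it was lower in 697 (2314.4 to 2402.9, against 2628.1 to 2769.1) and RCH-ACV (1979.5 to 2335.2, against 2343.5 to 2470.2). Groups of 3 and 3 that do not overlap reach an exact permutation p of 0.1 at the lowest. The share of all genes that separate in this way was not counted. In such a sum the most abundant markers weigh most, and in RCH-ACV it fell although *MME* and *CD79A* rose. The part of the markers in the results for the members was not tested. The third RCH-ACV sample with *SOX11* siRNA and the first 697 control stood further from their replicates than other samples did, with a chi-square per degree of freedom of 3.32 to 4.97 against the other samples of their groups, and the third 697 sample with *SOX11* siRNA did likewise (3.45 and 4.54). For the members and the further signalling genes that passed, calls lost or gained without 1 of these libraries are given with and without them. The marker calls were not recomputed without single samples.

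*BAMBI* and *ID2* were the members that passed the test over the 3 lines together, both lower with *SOX11* siRNA. The 250 bases in front of their annotated start in RefSeq (GRCh38.p14, both on the plus strand) are shown because the data bear on the output of these genes. Lower case is plain sequence, and capitals mark each match to GGCGCC, the GC-rich element that SMAD1 and SMAD5 are known to bind. The *BAMBI* sequence is chr10:28677271-28677520 and the *ID2* sequence is chr2:8681806-8682055.
BAMBI: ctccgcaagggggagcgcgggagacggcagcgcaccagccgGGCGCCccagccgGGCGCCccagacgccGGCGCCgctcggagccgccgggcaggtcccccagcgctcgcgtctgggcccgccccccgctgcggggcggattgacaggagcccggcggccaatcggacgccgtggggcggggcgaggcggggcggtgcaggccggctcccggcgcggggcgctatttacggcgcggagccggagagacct
ID2: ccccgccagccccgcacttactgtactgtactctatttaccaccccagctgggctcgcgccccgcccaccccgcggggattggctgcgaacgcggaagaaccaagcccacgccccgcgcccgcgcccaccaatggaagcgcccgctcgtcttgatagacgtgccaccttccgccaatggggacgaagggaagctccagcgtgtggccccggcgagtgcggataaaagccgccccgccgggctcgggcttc
*BAMBI* held 3 matches to GGCGCC, at 209, 196 and 181 bases before the start, and no ACAAT or its complement ATTGT, a form of the core of the SOX motif. Other forms of that motif were not searched. *ID2* held neither. Both strands were searched, and GGCGCC reads the same on each. Of 35116 promoter windows of 250 bases, 16.4% held GGCGCC and 24.6% held ACAAT. Of the other members, *BMPR2* held 1 GGCGCC, and 2 of the 5 windows of *SMAD1* held 2 GGCGCC each. *SMAD6* and *BMPR1A* held 1 ACAAT each. The windows of *ID3*, *ID4*, *SMAD5* and *SMAD7* held neither GGCGCC nor ACAAT. All 10 members were matched in the promoter table. A match describes the letters of a window and was not tested as a binding site.

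Compared per length in the control samples, the members spanned a wide range of levels. *ID3* was the highest in every line, at 113 ± 5.89 RPKM in REH, 96.5 ± 8.86 in 697 and 135 ± 8.53 in RCH-ACV (mean ± SD, n = 3). *SMAD1* was at 17.5, 30.5 and 24.0 RPKM and *SMAD5* at 15.2, 21.8 and 18.2 RPKM in the same order of lines. *BAMBI* depended on the line, at 1.56 RPKM in REH, 23.8 in 697 and 45.0 in RCH-ACV. *BMPR2* was at 3.08, 7.76 and 3.47 RPKM. *ID2* and *SMAD7* had means between 0.559 and 2.31 RPKM. *ID4* was at 1.66 RPKM in RCH-ACV, 0.136 in 697 and 0 in REH, and *SMAD6* and *BMPR1A* had means of at most 0.408 and 0.161 RPKM in any line. *ID1* was at 0.0968, 0.522 and 0.0387 RPKM.

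**Figure D1:**
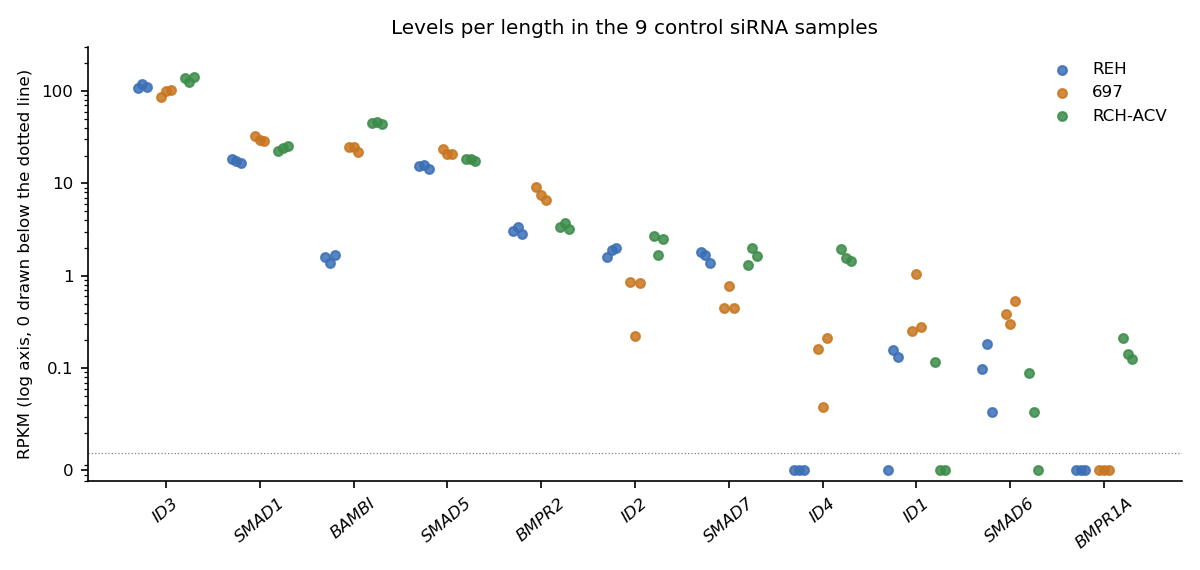
Level per length of the 10 members and *ID1* in the 9 control siRNA samples, in RPKM on a log axis, with values of 0 drawn below the dotted line. Each point is 1 sample, coloured by cell line. *ID3* lies between 86.5 and 142 RPKM in all 9 samples, and *BAMBI* separates REH from the other lines. *ID4* is at 0 in REH, and *BMPR1A* is at 0 in REH and 697.

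*ID3* thus made up nearly all *ID* transcripts of these cells. Its share of the summed RPKM of *ID1* to *ID4* in controls was 98.3% ± 0.216 in REH, 98.7% ± 0.0994 in 697 and 97.1% ± 0.441 in RCH-ACV (mean ± SD, n = 3). *SMAD1* exceeded *SMAD5* per length in each line, the RPKM ratio being 1.15 ± 0.0420 (REH), 1.40 ± 0.0397 (697) and 1.32 ± 0.105 (RCH-ACV).

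Between control samples of different lines most genes differed, so a called member is no exception there. For 697 against REH 76.3% of 13686 tested genes passed an adjusted p of 0.05, for RCH-ACV against REH 73.9% and for RCH-ACV against 697 64.2%. Of the members 8 could be tested and 8, 5 and 8 of them passed in these comparisons. Among them, *ID4* passed the filter on low counts through RCH-ACV alone, with 0 counts in the REH controls and 12 over the 697 controls. For 697 against REH it is thus counted though it was below the filter in both lines. *ID2* passed the filter through REH and RCH-ACV, with 19 counts over the 697 controls. Line and count table cannot be told apart, since each line has a table of its own. In bulk RNA, fewer cells that express a gene and less RNA per cell cannot be told apart either.

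Few members passed the test of the knockdown. In REH 0 of 7 tested members passed the test of *SOX11* siRNA against control siRNA, against 4.65% of 12787 genes. At an unadjusted p under 0.05 there were 3, *ID2*, *ID3* and *SMAD1*, beside 16.9% of all genes, and the Wald test of DESeq2 also called 0. In 697 0 of 7 passed, against 0.559% of 12169 genes, with 0 at an unadjusted p under 0.05, beside 8.32% of all genes, and 0 by DESeq2. In RCH-ACV 1 of 9 passed by either tool, *BAMBI*, against 7.66% of 12963 genes, and it was lower, as were 3.97% of all genes. There 3 members had an unadjusted p under 0.05, *ID2*, *ID4* and *BAMBI*, beside 22.6% of all genes. The median log2 fold change of the tested members was -0.02 (REH), -0.01 (697) and -0.07 (RCH-ACV), beside medians of all genes within 0.01 of 0. In 1 fit over the 18 samples with cell line as a term, 2 of 10 members passed, *ID2* and *BAMBI*, against 9.02% of 14026 genes. Both were lower with *SOX11* siRNA, a direction called for 5.28% of genes. A difference between lines in the response was not shown for any of the 9 members that held counts in at least 2 lines, with 0 called for the interaction by edgeR and 0 by DESeq2, beside 0.727% of all genes called by edgeR. At an unadjusted p under 0.05 there were 0, beside 10.2% of all genes. For *BMPR1A*, with counts in RCH-ACV alone, an interaction could not be tested, and for *ID4* it rests on 697 and RCH-ACV. With 3 samples a group, a p that misses the threshold does not show equal responses.

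**Figure D2:**
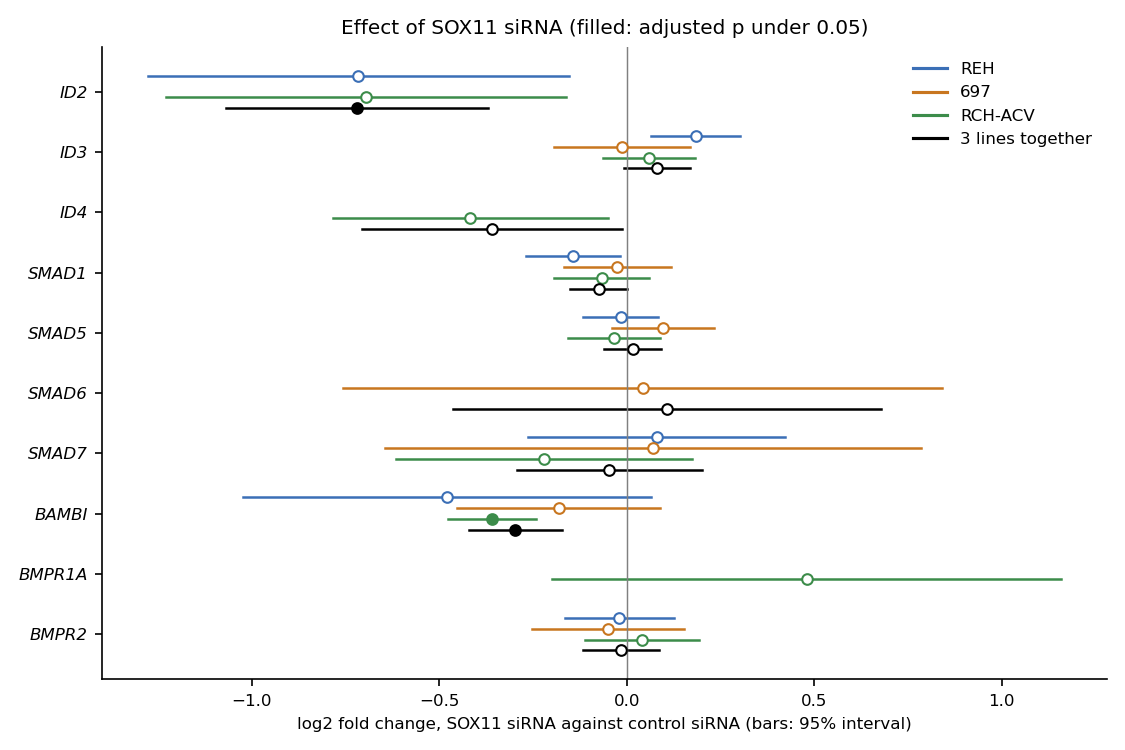
Effect of *SOX11* siRNA on each member as a log2 fold change against control siRNA, with its 95% interval, in each line and in the fit over the 3 lines together. Filled points passed an adjusted p of 0.05. *BAMBI* is filled in RCH-ACV and over the 3 lines, *ID2* over the 3 lines, and intervals of *SMAD5*, *SMAD6*, *SMAD7* and *BMPR2* span 0 wherever they could be tested.

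Among the receptors, *BMPR2* (NM_001204) encodes the type II receptor for BMP ligands. In hg19 it lies on the plus strand at chr2:203241050-203432474 with 13 exons, and an unnamed gene on the same strand shares part of its exons. *BMPR2* in REH was at 36.7, 40.3 and 34.6 CPM with control siRNA and at 36.7, 34.9 and 38.2 CPM with *SOX11* siRNA. *BMPR2* in 697 was at 111, 89.4 and 80.9 CPM with control siRNA and at 90.6, 91.4 and 91.2 CPM with *SOX11* siRNA. *BMPR2* in RCH-ACV was at 41.0, 45.3 and 39.2 CPM with control siRNA and at 42.4, 42.0 and 45.0 CPM with *SOX11* siRNA. The 697 samples all stood above those of the other lines, and within each line the siRNA groups overlapped. In controls the log2 fold change was 1.33 (SE 0.10) for 697 against REH and -1.17 (SE 0.10) for RCH-ACV against 697 (edgeR, adjusted p = 4.75e-10 and 7.30e-09). REH and RCH-ACV did not differ beyond their spread (0.16, 95% interval -0.06 to 0.39, adjusted p = 0.178). *SOX11* siRNA gave *BMPR2* a log2 fold change of -0.02 (REH), -0.05 (697) and 0.04 (RCH-ACV), with 95% intervals of -0.17 to 0.13, -0.25 to 0.15 and -0.11 to 0.19 and adjusted p of 0.933, 0.964 and 0.78.

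*BMPR1A* (NM_004329, hg19 chr10:88516353-88692582, plus strand, 13 exons) encodes a type I receptor. It held 0 counts in all 12 libraries of REH and 697. In RCH-ACV it was at 1.37, 0.908 and 0.815 CPM with control siRNA and at 1.77, 1.32 and 1.42 CPM with *SOX11* siRNA, from 7 to 22 counts a library, and the groups overlapped. Against 3 counts over the 3 controls of a line, the level in RCH-ACV controls was at least 10.8-fold higher than in REH and at least 7.72-fold higher than in 697. Its log2 fold change with *SOX11* siRNA in RCH-ACV was 0.48 (SE 0.32, 95% interval -0.20 to 1.16, adjusted p = 0.405). The fit over the 3 lines rests on RCH-ACV alone for this gene and is not given. *BMPR1A* has the annotated pseudogenes *BMPR1AP1* and *BMPR1AP2*, so its low counts are uncertain.

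The other type I receptors came from a list of BMP receptors and co-receptors. *BMPR1B* held at most 0.104 RPKM in the controls of any line and *ACVRL1* at most 0.0215 RPKM. *ACVR1*, the type I receptor that also serves activin-related ligands, was present in every line, at 2.38 ± 0.0929 RPKM in REH, 2.98 ± 0.261 in 697 and 2.16 ± 0.136 in RCH-ACV (mean ± SD, n = 3). Of the type I receptors that carry BMP signals, *ACVR1* was thus the highest in the controls of all 3 lines.

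*BAMBI* (NM_012342, hg19 chr10:28966439-28971861, plus strand, 3 exons) encodes a membrane protein that resembles a type I receptor but lacks its kinase, and so blocks signalling. *BAMBI* in REH was at 2.73, 2.35 and 2.84 CPM with control siRNA and at 2.38, 1.05 and 1.90 CPM with *SOX11* siRNA. *BAMBI* in 697 was at 42.2, 42.1 and 36.6 CPM with control siRNA and at 40.7, 37.6 and 29.3 CPM with *SOX11* siRNA. *BAMBI* in RCH-ACV was at 75.8, 78.1 and 74.6 CPM with control siRNA and at 58.2, 59.4 and 60.4 CPM with *SOX11* siRNA. Every RCH-ACV sample that had received *SOX11* siRNA lay below every RCH-ACV control, while in REH and 697 the groups overlapped. How many of all genes separate in this way in RCH-ACV was not counted.

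The knockdown lowered *BAMBI* in RCH-ACV by a log2 fold change of -0.36 (SE 0.06, 95% interval -0.48 to -0.24, adjusted p = 0.000726 from edgeR's quasi-likelihood F-test). Leaving out each of the 6 samples in turn kept the call, with adjusted p from 1.60e-05 to 0.0104. In 697 the log2 fold change was -0.18 (SE 0.12, adjusted p = 0.81, 95% interval -0.45 to 0.09) and in REH -0.48 (SE 0.26, adjusted p = 0.377, 95% interval -1.02 to 0.06), from 8 to 30 counts a REH library. Over the 3 lines *BAMBI* fell by 0.30 on the log2 scale (SE 0.06, adjusted p = 0.00164), and the call held without each of the 18 samples in turn (adjusted p 0.000332 to 0.00698). The effect was not shown to differ between lines (interaction, adjusted p = 0.804).

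Between lines *BAMBI* had the widest range of the members that held counts in every line. In controls its log2 fold change was 3.95 (SE 0.12) for 697 against REH, 4.87 (SE 0.11) for RCH-ACV against REH and 0.92 (SE 0.07) for RCH-ACV against 697 (edgeR, adjusted p = 2.43e-15, 2.06e-17 and 1.47e-09). The order RCH-ACV, 697, REH therefore held with no neighbours within their spread.

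**Figure D3:**
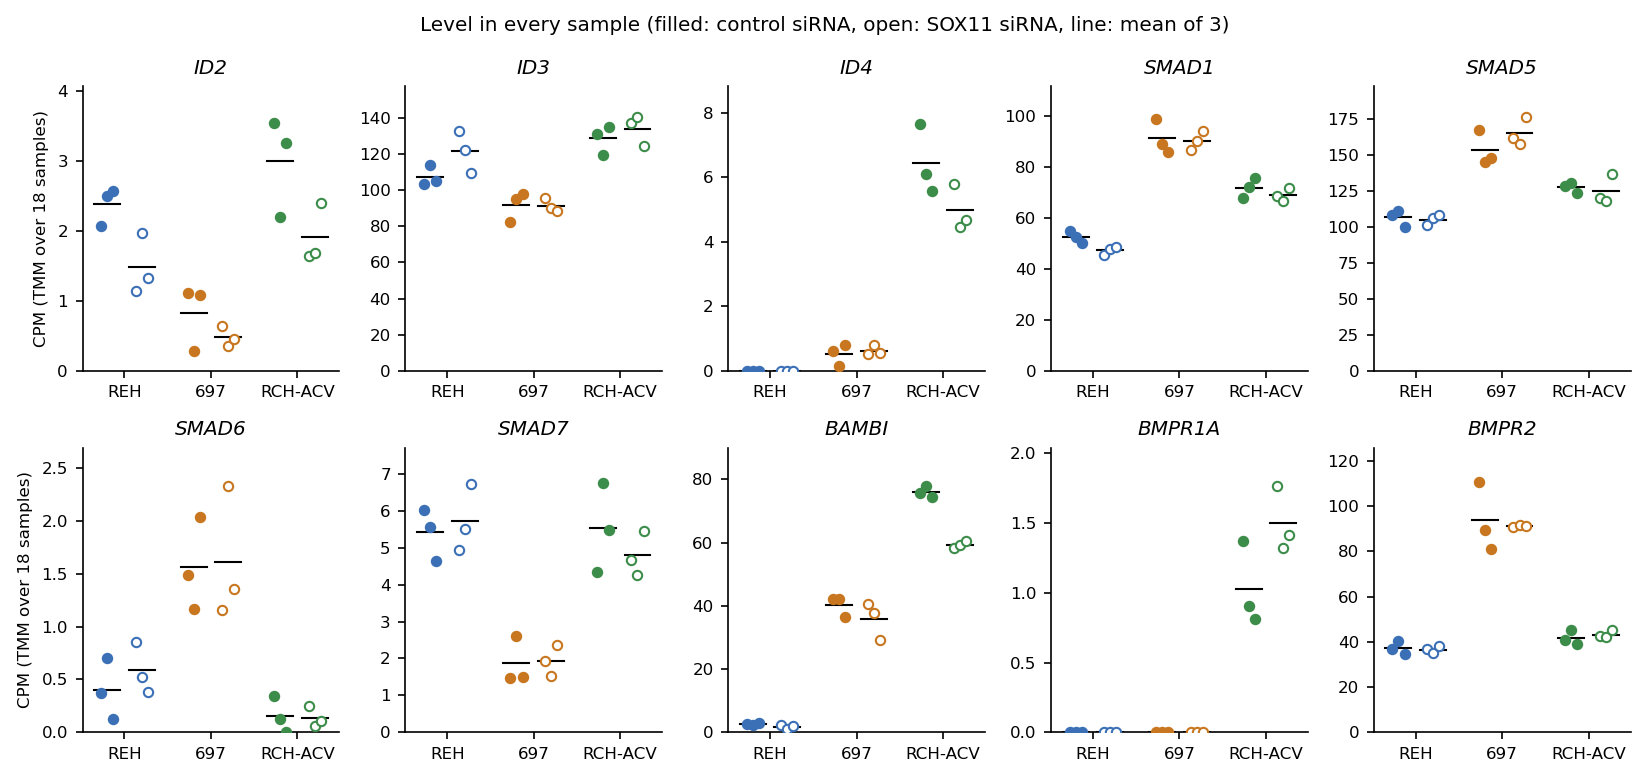
Level of each member in every sample, in CPM scaled by TMM over the 18 samples, by cell line, with control siRNA filled, *SOX11* siRNA open and a line at the mean of 3. *BAMBI* in RCH-ACV lies between 74.6 and 78.1 CPM in controls and between 58.2 and 60.4 CPM with *SOX11* siRNA, and for most other members the groups of a line overlap.

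*SMAD1* and *SMAD5* encode the SMAD proteins that BMP receptors phosphorylate. *SMAD1* (NM_005900) lies at chr4:146402346-146480328 in hg19 on the plus strand with 7 exons, some of which *SMAD1-AS1* overlaps on the opposite strand. The library kit marks strand but the setting used for counting is not given in the sources used here, so reads of a gene and its antisense partner cannot be told apart. *SMAD1* in REH was at 54.8, 52.7 and 50.3 CPM with control siRNA and at 45.5, 48.0 and 48.8 CPM with *SOX11* siRNA. *SMAD1* in 697 was at 99.1, 89.1 and 86.2 CPM with control siRNA and at 86.8, 90.4 and 94.3 CPM with *SOX11* siRNA. *SMAD1* in RCH-ACV was at 67.9, 72.2 and 75.9 CPM with control siRNA and at 68.6, 66.8 and 71.8 CPM with *SOX11* siRNA. In REH all samples with *SOX11* siRNA lay below all controls, a separation that was not counted over all genes. The log2 fold change of -0.14 (SE 0.06, 95% interval -0.27 to -0.02) missed the threshold (edgeR, adjusted p = 0.211). The changes in 697 (-0.02, adjusted p = 0.973), in RCH-ACV (-0.07, adjusted p = 0.547) and over the 3 lines (-0.08, adjusted p = 0.234) did not pass either. Between controls *SMAD1* was highest in 697 and lowest in REH, with log2 fold changes of 0.80 (SE 0.07) for 697 against REH, 0.46 (SE 0.07) for RCH-ACV against REH and -0.34 (SE 0.07) for RCH-ACV against 697 (edgeR, adjusted p = 3.28e-09, 7.53e-06 and 0.000169).

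*SMAD5* (NM_001001419, hg19 chr5:135468534-135524435, plus strand, 9 exons, with *SMAD5-AS1* on the opposite strand) followed the same order of lines. *SMAD5* in REH was at 108, 111 and 100.2 CPM with control siRNA and at 101, 106 and 108 CPM with *SOX11* siRNA. *SMAD5* in 697 was at 167, 145 and 148 CPM with control siRNA and at 161, 157 and 176 CPM with *SOX11* siRNA. *SMAD5* in RCH-ACV was at 128, 131 and 123 CPM with control siRNA and at 120.3, 118 and 137 CPM with *SOX11* siRNA. The siRNA groups overlapped in each line, and the log2 fold changes were -0.02 (95% interval -0.12 to 0.08), 0.10 (-0.04 to 0.23) and -0.03 (-0.16 to 0.09), with adjusted p of 0.913, 0.797 and 0.772. In controls the log2 fold change was 0.52 (SE 0.06) for 697 against REH, 0.26 (SE 0.06) for RCH-ACV against REH and -0.26 (SE 0.06) for RCH-ACV against 697 (edgeR, adjusted p = 1.76e-07, 0.000605 and 0.000659). *SMAD1* and *SMAD5* thus both differed between every pair of lines.

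*SMAD7* (NM_005904, hg19 chr18:46446223-46477335, minus strand, 4 exons) encodes an inhibitory SMAD that blocks BMP and TGF-beta receptors. *SMAD7* in REH was at 6.03, 5.56 and 4.64 CPM with control siRNA and at 4.95, 5.50 and 6.73 CPM with *SOX11* siRNA. *SMAD7* in 697 was at 1.48, 2.62 and 1.49 CPM with control siRNA and at 1.92, 1.51 and 2.37 CPM with *SOX11* siRNA. *SMAD7* in RCH-ACV was at 4.34, 6.74 and 5.47 CPM with control siRNA and at 4.67, 4.27 and 5.45 CPM with *SOX11* siRNA. The level in 697 was below that of both other lines, with a log2 fold change in controls of -1.57 (SE 0.25) for 697 against REH and 1.57 (SE 0.26) for RCH-ACV against 697 (edgeR, adjusted p = 2.12e-05 and 4.69e-05). REH and RCH-ACV did not differ beyond their spread (95% interval -0.39 to 0.40, adjusted p = 0.989). The log2 fold change with *SOX11* siRNA was 0.08 (REH), 0.07 (697) and -0.22 (RCH-ACV), with adjusted p of 0.873, 0.986 and 0.519 and intervals as wide as -0.65 to 0.78 in 697.

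*SMAD6* (NM_005585, hg19 chr15:66994574-67075187, plus strand, 4 exons), the inhibitory SMAD that acts mainly on the BMP arm, was near the floor. *SMAD6* in REH was at 0.377, 0.704 and 0.129 CPM with control siRNA and at 0.856, 0.524 and 0.379 CPM with *SOX11* siRNA. *SMAD6* in 697 was at 1.48, 1.17 and 2.04 CPM with control siRNA and at 1.15, 2.33 and 1.36 CPM with *SOX11* siRNA. *SMAD6* in RCH-ACV was at 0.343, 0.130 and 0 CPM with control siRNA and at 0.253, 0.0601 and 0.109 CPM with *SOX11* siRNA, from at most 3 counts a library. Only the 697 samples held enough counts for a test within a line, which gave a log2 fold change of 0.04 (95% interval -0.76 to 0.84, adjusted p = 0.995). The mean level in controls was highest in 697 and lowest in RCH-ACV, which was not tested, since the gene did not pass the filter on low counts there. Over the 3 lines the log2 fold change with *SOX11* siRNA was 0.11 (SE 0.28, adjusted p = 0.879). A change in *SMAD6* was not detectable at this depth in REH and RCH-ACV.

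Among the *ID* genes, *ID3* (NM_002167, hg19 chr1:23884417-23885992, minus strand, 3 exons) was abundant in every line. *ID3* in REH was at 103, 114 and 105 CPM with control siRNA and at 133, 122 and 109 CPM with *SOX11* siRNA. *ID3* in 697 was at 82.1, 94.96 and 98.0 CPM with control siRNA and at 95.7, 90.3 and 88.2 CPM with *SOX11* siRNA. *ID3* in RCH-ACV was at 131, 119 and 135 CPM with control siRNA and at 137, 140.3 and 125 CPM with *SOX11* siRNA. The groups overlapped in each line. In REH the log2 fold change of 0.18 (SE 0.06, 95% interval 0.07 to 0.30) missed the threshold (edgeR, adjusted p = 0.0679). It passed without the third REH sample with *SOX11* siRNA (adjusted p = 0.00449), without the second REH control (0.0278), when genes with low counts were kept (0.0405) and when samples were blocked by replicate number (0.0473). The log2 fold changes of -0.01 in 697 (95% interval -0.20 to 0.17, adjusted p = 0.989) and 0.06 in RCH-ACV (-0.06 to 0.18, adjusted p = 0.586) did not pass. Between controls *ID3* was highest in RCH-ACV and lowest in 697, with log2 fold changes of -0.23 (SE 0.07) for 697 against REH, 0.27 (SE 0.07) for RCH-ACV against REH and 0.50 (SE 0.07) for RCH-ACV against 697 (adjusted p = 0.00578, 0.00139 and 5.38e-06).

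*ID2* (NM_002166, hg19 chr2:8818975-8824591, plus strand, 3 exons) has *ID2-AS1* on the opposite strand of part of its exons and an annotated pseudogene, *ID2B*, so its counts are uncertain. *ID2* in REH was at 2.07, 2.504 and 2.58 CPM with control siRNA and at 1.14, 1.97 and 1.33 CPM with *SOX11* siRNA, from 12 to 32 counts a library. *ID2* in 697 was at 1.11, 0.291 and 1.09 CPM with control siRNA and at 0.640, 0.349 and 0.452 CPM with *SOX11* siRNA, from 2 to 9 counts. *ID2* in RCH-ACV was at 3.54, 2.20 and 3.26 CPM with control siRNA and at 1.64, 1.68 and 2.40 CPM with *SOX11* siRNA. The mean was lower with *SOX11* siRNA in all 3 lines. In REH every sample with *SOX11* siRNA lay below every control, while the groups overlapped in 697 and RCH-ACV. How many of all genes separate in this way in REH was not counted, and 16.9% of them had an unadjusted p under 0.05 (edgeR).

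Within a line the difference in *ID2* did not pass the test. The log2 fold change was -0.72 in REH (SE 0.27, 95% interval -1.28 to -0.15, adjusted p = 0.154) and -0.70 in RCH-ACV (SE 0.25, 95% interval -1.23 to -0.16, adjusted p = 0.107), and in 697 the counts were too low to test. Without the third RCH-ACV sample with *SOX11* siRNA, the adjusted p in that line was 0.0269. Over the 3 lines *ID2* fell by 0.72 on the log2 scale (SE 0.17, 95% interval -1.07 to -0.37, edgeR adjusted p = 0.00654). That call held without each of the 18 samples in turn (adjusted p 0.00346 to 0.0269), and the interaction with cell line did not pass (unadjusted p = 0.97). In controls *ID2* was lower in 697 than in REH (log2 fold change -1.46, SE 0.35) and higher in RCH-ACV than in 697 (1.82, SE 0.35). *ID2* passed the filter on low counts through REH and RCH-ACV, with 2 to 9 counts in a 697 control. No p-value is therefore given for these differences from 697. REH and RCH-ACV did not differ beyond their spread (0.36, 95% interval -0.16 to 0.88, adjusted p = 0.202).

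*ID4* (NM_001546, hg19 chr6:19837601-19842428, plus strand, 3 exons) separated the lines. It held 0 counts in all 6 REH libraries. *ID4* in 697 was at 0.618, 0.146 and 0.814 CPM with control siRNA and at 0.512, 0.815 and 0.565 CPM with *SOX11* siRNA. *ID4* in RCH-ACV was at 7.65, 6.10 and 5.59 CPM with control siRNA and at 5.81, 4.45 and 4.69 CPM with *SOX11* siRNA. Against 3 counts over the 3 REH controls, *ID4* was at least 67.1-fold higher in RCH-ACV controls and at least 5.58-fold higher in 697 controls. RCH-ACV exceeded 697 by a log2 fold change of 3.56 (SE 0.33). *ID4* passed the filter on low counts through RCH-ACV alone, with 1 to 6 counts in a 697 control. No p-value is therefore given for this difference. With *SOX11* siRNA the RCH-ACV groups overlapped and the log2 fold change of -0.42 (SE 0.17, 95% interval -0.78 to -0.05) did not pass (adjusted p = 0.164). In the fit over the 3 lines, to which REH adds nothing for this gene, it was -0.36 (SE 0.17, adjusted p = 0.206).

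*ID1*, the remaining member of the *ID* family, held from 0 to 7 counts a library. *ID1* in REH was at 0, 0.156 and 0.129 CPM with control siRNA and at 0.0951, 0.131 and 0 CPM with *SOX11* siRNA. *ID1* in 697 was at 0.247, 1.02 and 0.271 CPM with control siRNA and at 0.384, 0.349 and 0.452 CPM with *SOX11* siRNA. *ID1* in RCH-ACV was at 0.114, 0 and 0 CPM with control siRNA and at 0, 0 and 0.218 CPM with *SOX11* siRNA. At these counts no effect of the siRNA was detectable.

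For context, 89 further genes of BMP and TGF-beta signalling, *ID1* included, were taken from lists by role. In REH 51 of them could be tested, of which 2 passed as higher and 2 as lower with *SOX11* siRNA, beside 4.65% of all genes called, and their median log2 fold change was -0.04. In 697 56 were tested and 1 was lower, beside 0.559% of all genes, with a median of 0.00. In RCH-ACV 56 were tested, 2 were higher and 7 lower, beside 7.66% of all genes, with a median of -0.02. In the fit over all lines 63 were tested, 2 were higher and 8 lower, beside 9.02% of all genes, with a median of -0.01. All-gene medians were within 0.01 of 0 in these comparisons.

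Of the E proteins, which ID proteins bind, *TCF4* and *TCF12* passed the test in at least 1 line. *TCF4* went from 25.5 ± 2.09 to 18.5 ± 0.731 RPKM (mean ± SD, n = 3) in 697 with *SOX11* siRNA, a log2 fold change of -0.47 (SE 0.06, edgeR adjusted p = 0.00409). In RCH-ACV *TCF4* had a log2 fold change of -0.37 (SE 0.10, adjusted p = 0.0242), a call that was lost by DESeq2 (adjusted p = 0.343) and whenever a library other than the third with *SOX11* siRNA was left out (adjusted p up to 0.135). Without it the adjusted p was 4.65e-12. In REH the change was -0.04 (adjusted p = 0.671), and the interaction of *TCF4* with cell line did not pass (adjusted p = 0.258). Over the 3 lines *TCF4* passed with a log2 fold change of -0.29. That call was kept without each of the 18 samples in turn (edgeR, adjusted p 7.86e-05 to 0.00602). *TCF12* rose in REH (0.20, SE 0.04, adjusted p = 0.00100), from 49.5 to 56.5 RPKM. This call was lost in 1 fit over the 18 samples (adjusted p = 0.113).

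Among BMP ligands, *BMP6* had the highest mean over the 9 controls, at 4.57 to 6.97 RPKM in controls, and did not pass the test in any line. *BMP2* was lower in RCH-ACV, from 4.77 ± 0.460 to 3.59 ± 0.181 RPKM (log2 fold change -0.42, SE 0.11, edgeR adjusted p = 0.0243). This call was lost by DESeq2 (0.0973), without the second sample with *SOX11* siRNA (0.107) and without the first (0.152) or second control (0.0783). With the lines together, *BMP2* fell by 0.33 on the log2 scale (adjusted p = 0.00489), a call kept without each sample in turn.

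Of the extracellular antagonists, *CHRDL1*, a chordin-like binder of BMPs, held counts in RCH-ACV alone. It fell there from 3.63 ± 0.236 to 2.19 ± 0.146 RPKM (mean ± SD, n = 3), a log2 fold change of -0.75 (SE 0.12, edgeR adjusted p = 0.000834) that held without each sample in turn. *NOG*, the secreted BMP antagonist noggin, was at 5.50, 12.7 and 25.3 RPKM in REH, 697 and RCH-ACV controls. It rose over the 3 lines by 0.20 on the log2 scale (SE 0.05, adjusted p = 0.0105) but passed in none of them by itself (adjusted p = 0.305, 0.747 and 0.0689).

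Among receptors and intracellular regulators, *ZNF423*, a zinc-finger partner of SMAD1 and SMAD4, was lower in REH, from 6.10 ± 0.380 to 4.56 ± 0.222 RPKM (log2 fold change -0.41, SE 0.07, edgeR adjusted p = 0.000423), and over the 3 lines (-0.34, adjusted p = 0.000306). *SKIL*, which represses SMAD-driven transcription, fell in RCH-ACV by 0.49 on the log2 scale (SE 0.09, adjusted p = 0.00336), and the call held without each sample in turn. *TGFBR2*, the type II receptor for TGF-beta, rose in REH by 0.24 (SE 0.05, adjusted p = 0.00675) but not without the third control (0.0565) or in 1 fit over the 18 samples (0.0802). *SNAI1*, a zinc-finger repressor and target gene of the pathway, was lower in REH by a log2 fold change of -1.06 (SE 0.26, adjusted p = 0.0179), a call lost without the first sample with *SOX11* siRNA (0.152), without the third control (0.111) and by DESeq2 (0.0716).

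The remaining calls in RCH-ACV were less firm. *ZNF423* (log2 fold change -0.36, adjusted p = 0.0433), *NEO1*, a co-receptor (-0.23, 0.0411), *TGFBR1*, the type I receptor for TGF-beta (-0.37, 0.0325), and *ENG*, the co-receptor endoglin (0.22, 0.0236), passed edgeR's test with all 6 samples but not the Wald test of DESeq2. Leaving out a single sample ended each of these calls unless it was the third sample with *SOX11* siRNA, with adjusted p up to 0.163, 0.168, 0.211 and 0.118, and without it they were 0.000235, 0.00176, 0.000140 and 0.000534. *SMURF1*, a ubiquitin ligase for SMAD1 and SMAD5, was higher (0.27, adjusted p = 0.0119), a call lost without the second sample with *SOX11* siRNA (0.0795) and without the second (0.0635) or the third control (0.0594). In the fit over the 3 lines *SMAD3*, of the TGF-beta arm, fell by 0.13 on the log2 scale (adjusted p = 0.0106) and *TGFBR1* by 0.19 (adjusted p = 0.00912). There *BMP3* (0.86, adjusted p = 0.0237), *NEO1* (-0.17, 0.0245) and *RGMA* (-0.21, 0.0370) passed too. From control to *SOX11* siRNA, *BMP3* went from 45 to 121 counts in 697, 20 to 13 in REH and 2 to 2 in RCH-ACV. *NEO1* held 3 and 4 counts in 697, so that line adds little to its result. The log2 fold change of *RGMA* was -0.84 in 697, -0.11 in REH and -0.16 in RCH-ACV. The interaction with cell line did not pass for these genes (edgeR, adjusted p = 0.371, 0.863 and 0.113). Leaving out 1 of the 18 samples ended the calls of *BMP3*, *NEO1* and *RGMA* in 4, 5 and 8 of 18 fits. The adjusted p (edgeR) was up to 0.115 for *BMP3*, without the second 697 sample with *SOX11* siRNA. For *NEO1* it was up to 0.0738, without the second RCH-ACV sample with *SOX11* siRNA. For *RGMA* it was up to 0.0823, without the third RCH-ACV control. Of the libraries that stood apart, leaving out the first 697 control gave *BMP3* an adjusted p of 0.0802 and leaving out the third 697 sample with *SOX11* siRNA 0.0646, while *RGMA* was at 0.0516 without the third RCH-ACV sample with *SOX11* siRNA. DESeq2 did not call *BMP3* (0.338) but called *RGMA* (0.00538). The most abundant genes of the remaining lists, *FKBP1A*, which binds type I receptors, at a mean of 129 RPKM over the controls, and *JUNB*, a BMP target gene, at 7.17 RPKM, did not pass in any line.

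**Figure D4:**
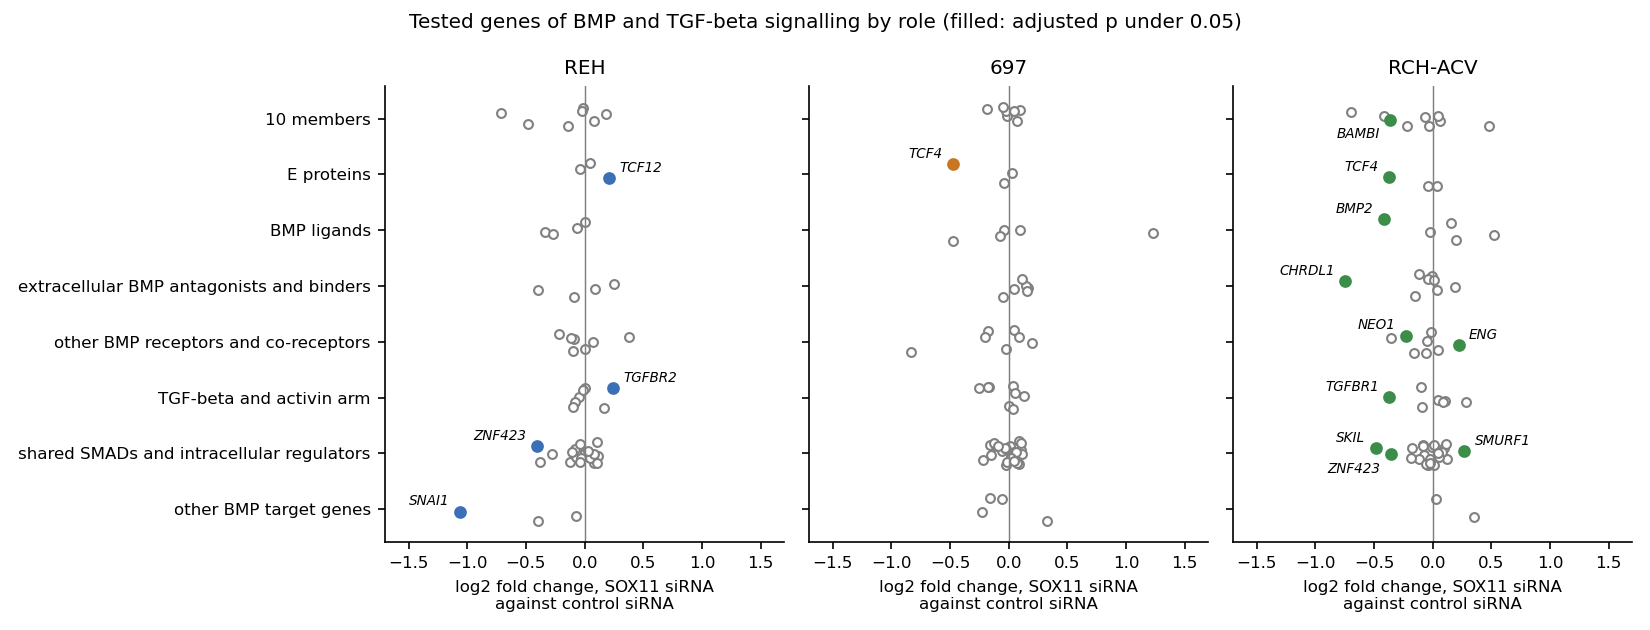
Log2 fold change of every tested gene on each list, *SOX11* siRNA against control siRNA, in the 3 lines, with 1 point a gene and the genes that passed an adjusted p of 0.05 filled and named. Most points lie near 0 and *BAMBI* is the filled point among the members, in RCH-ACV.

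For each member, the gene whose log2 CPM followed it most closely over the 18 samples was found among 14025 others. Pearson's r was 0.993 for *BAMBI* with *LRRC14B*, 0.996 for *BMPR1A* with *BEND6*, 0.990 for *ID4* with *CLU*, 0.991 for *SMAD1* with *TOMM20*, 0.992 for *BMPR2* with *AKAP9* and 0.983 for *SMAD5* with *XPO1*. It was 0.962 for *SMAD7* with *ZNF780A*, 0.961 for *ID3* with *NELFA*, 0.927 for *ID2* with *ATP8B2* and 0.922 for *SMAD6* with *MTCH1*. The points fall into 3 lines, so most of this likeness is the difference between lines, and the partner was picked as the highest of all genes. As deviations from the group means, r lay between 0.527 for *SMAD6* and 0.849 for *SMAD5*. These values are descriptions.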

How the data were processed

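Total RNA of 18 samples was measured by RNA-seq. Per the labels and methods, reads were trimmed, STAR 2.5.3a placed them on hg19, those with more than 2 locations were dropped, and HOMER counted the rest for each RefSeq transcript. The values deposited are raw read counts in 1 table for each line, without normalization, and 0 columns belonged to other samples. Transcripts matched a symbol for 98.0% of 50678 rows and 99.0% of counts. CPM used TMM factors over the 18 samples. RPKM divided CPM by the MANE Select exonic length, because the tables give no lengths.

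Each line, the controls of the lines, and the 18 samples together were fitted with edgeR 4.0.16 in R 4.3.3 (TMM, filterByExpr by group, quasi-likelihood F-test, two-sided), with Benjamini-Hochberg adjustment over all genes tested and a threshold of 0.05. Alternatives were RLE factors, library size alone, DESeq2 1.42.0, the legacy method, other filters, all transcripts apart, the transcript highest within a line, 1 fit over the 18 samples, a threshold of 0.01, a replicate block, and leaving out each sample. The fits were tested on simulated data. The deviations of same-numbered samples had correlations of -0.244 to 0.264, above 0.1 in 1 of 9 pairs. Samples with different numbers were not compared, so these values cannot decide whether the numbers pair samples. The reported fits took samples as unpaired, and the replicate block is the alternative to that.

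The 10 members, *ID1* and *SOX11* are named with values, and of the pathway lists the called genes, in at least 1 line, and the gene highest in controls, except that 1 E protein's levels are not reported here. Further genes were named after their values were seen: *ACVR1*, *BMPR1B*, *ACVRL1*, *BMP3*, *RGMA*, *SMAD3* and the cell type markers that moved with the siRNA. The members and lists were chosen with earlier results of these data known.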

Additional observations from a re-analysis of the deposited data

How the results depend on the processing

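For the 10 members, 67 results were recomputed, giving 1324 values under alternatives. Of these 1287 kept their side of the threshold and, where they have one, their direction. Another 32 changed direction, all in results that had not passed, and 5 passed where the reported fit did not. The 10 interaction results have no direction, so only their side of the threshold was compared, and for *BMPR1A* it could not be tested. All 428 alternative values of the 24 results that passed kept both. Most of these 24 were differences between lines (8, 5 and 8 members), where 64.2% to 76.3% of all genes passed. They include *ID4*, which passed the filter on low counts through RCH-ACV alone, and *ID2*, which was below it in 697. For the knockdown they were 1 member in RCH-ACV and 2 members over the 3 lines. Library size alone moved the median log2 fold change of all genes for 697 against REH to -0.15, and no called member changed side or direction.

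Direction changed near 0. Without a filter *ID3* in 697 was at 0.000623, with library size alone *SMAD7* for RCH-ACV against REH was at -0.068, and over the 3 lines *BMPR2* was at 0.028 without the first 697 control and the third RCH-ACV *SOX11* siRNA sample together, an alternative chosen after seeing the data. Leaving out each sample in turn, the log2 fold change ranged in REH from -0.051 to 0.011 for *SMAD5*, -0.059 to 0.043 for *BMPR2* and -0.066 to 0.19 for *SMAD7*. In 697 it ranged from -0.064 to 0.030 for *SMAD1*, -0.32 to 0.27 for *SMAD6*, -0.096 to 0.040 for *ID3*, -0.11 to 0.38 for *SMAD7* and -0.14 to 0.081 for *BMPR2*. In RCH-ACV it ranged from -0.10 to 0.015 for *SMAD5* and -0.0030 to 0.10 for *BMPR2*. For RCH-ACV against REH *SMAD7* ranged from -0.15 to 0.16. Over the 3 lines the range was -0.085 to 0.25 for *SMAD6*, -0.0054 to 0.034 for *SMAD5*, -0.048 to 0.037 for *BMPR2* and -0.12 to 0.028 for *SMAD7*.

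Counts of genes called moved more. In REH, 594 became 313 with DESeq2, 1493 with all transcripts apart, 241 in 1 fit over 18 samples, 275 under 0.01, and 299 to 523 without single samples, at most 375 without the first or second *SOX11* siRNA sample or the third control, and the members called went from 0 to 1 (*ID3*) without a filter, with the replicate block and in a range of 0 to 1 without single samples. In 697, 68 became 217 with all transcripts apart, 193 in 1 fit, 27 under 0.01 and 25 to 71 without single samples, and 25 to 41 without any but the first control or the third *SOX11* siRNA sample. In RCH-ACV, 993 became 582 with DESeq2, 2620 with all transcripts apart, 406 under 0.01 and 386 to 2522 without single samples, highest without the third *SOX11* siRNA sample and at most 537 without any other, and the members called ranged from 1 to 2. All transcripts apart gave 23999, 23098 and 20321 for 697 against REH, RCH-ACV against REH and RCH-ACV against 697, 326 for the interaction and 3130 over the 3 lines, since transcripts of a gene repeat its reads and more rows were tested. The interaction count of 102 ranged from 57 to 185 without single samples, with 174 without the first 697 control, 185 without the third RCH-ACV *SOX11* siRNA sample, 57 without the second, and 65 and 66 without the third and first REH *SOX11* siRNA samples. With the replicate block the calls were 29 in 697, 45 for the interaction and 823 over the 3 lines, and the block also ended the RCH-ACV calls of *ZNF423*, *NEO1* and *ENG* (adjusted p = 0.0557, 0.0697 and 0.0543) and those of *NEO1*, *BMP3* and *RGMA* over the 3 lines (0.0886, 0.0586 and 0.0841). The alternative without both libraries together ended the calls of *BMP3* and *RGMA* too (0.0728 and 0.0678). Apart from the reasons named, the cause was not tested. Depth limits *ID1*, *SMAD6*, *BMPR1A* and, in 697, *ID2*.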
